A study of Mus musculus with 8 samples.

Results

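The inter-alpha-trypsin inhibitor chains are 6 genes chosen by symbol, the heavy chain genes Itih1, Itih2, Itih3, Itih4 and Itih5 and the bikunin precursor gene Ambp, a choice made with earlier results of these data known. All 6 were among the 15210 genes of the deposited table, and all 6 passed the filter on low values that left 12008 genes for testing. Liver RNA came from 8 female mice of the F1-TKm30 line, aged 17 or 21 weeks, with no label that ties an age to a mouse. F1-TKm30 mice have the immunodeficient NOG background, and all 8 carried the herpes simplex virus thymidine kinase cDNA, mutant clone 30, driven in the liver by the mouse transthyretin enhancer and promoter. The control group (n = 4) received MOCA at 0% and the MOCA group (n = 4) received it at 0.05%, both for 4 weeks. MOCA is 4,4'-methylenebis(2-chlorobenzenamine), an aromatic amine used to cure polyurethane. A treatment label names another strain, C57BL; the strain label and the study description name F1-TKm30, which is used here. Each library is labelled as a separate mouse.

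Inter-alpha-trypsin inhibitors are plasma proteins made mainly by hepatocytes. Bikunin, a small protease inhibitor with Kunitz domains, carries a chondroitin sulfate chain, and heavy chains are joined to that chain by an ester bond before secretion. In tissues the enzyme-like protein TSG-6 moves the heavy chains from bikunin to hyaluronan, which stabilises hyaluronan-rich matrix around cells. Itih1, Itih2 and Itih3 encode the heavy chains of this kind, Itih4 encodes a plasma protein cleaved by kallikrein that is not linked to bikunin, and Itih5 is a relative expressed mostly outside hepatocytes. Ambp encodes a precursor that is cut into bikunin and alpha-1-microglobulin, a heme-binding lipocalin. RNA levels were measured here, and the proteins were not.

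The 6 genes lie at 3 loci, given here by RefSeq gene records of the mm10 assembly (GRCm38.p6). Itih4 (chromosome 14, 30886476 to 30901986, plus strand), Itih3 (chromosome 14, 30908572 to 30923787, minus strand) and Itih1 (chromosome 14, 30929180 to 30943289, minus strand) follow each other, with gaps of 6.59 kb and 5.39 kb. Itih2 (chromosome 2, 10094591 to 10130683, minus strand) and Itih5 (chromosome 2, 10153536 to 10256529, plus strand) point away from each other across a gap of 22.9 kb. Ambp is alone (chromosome 4, 63143275 to 63154172, minus strand). No other gene model of GENCODE M21 overlapped any of the 6 on either strand (0 models each), so their reads had no annotated antisense or overlapping partner.

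The stretches upstream of the 3 chromosome 14 genes are shown because Itih3, the one gene of the 6 that passed the test below, lies between the others. Each line gives the 250 bases before the start site that RefSeq annotates, 5′ to 3′ on the gene's own strand (GRCm38.p6; Itih4 at chr14:30886226-30886475 on the plus strand, Itih3 at chr14:30923588-30923837 and Itih1 at chr14:30943290-30943539 on the minus strand), with motif matches in capitals. The Itih3 record also holds a longer model, so most of its window lies inside the span given above, which ends at 30923787. The bases before the start of that longer model were therefore largely not shown or searched.
Itih4: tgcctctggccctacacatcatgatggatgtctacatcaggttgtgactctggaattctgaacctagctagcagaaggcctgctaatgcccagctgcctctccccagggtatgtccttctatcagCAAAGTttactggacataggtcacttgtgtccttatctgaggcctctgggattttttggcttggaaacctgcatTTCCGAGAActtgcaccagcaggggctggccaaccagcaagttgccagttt
Itih3: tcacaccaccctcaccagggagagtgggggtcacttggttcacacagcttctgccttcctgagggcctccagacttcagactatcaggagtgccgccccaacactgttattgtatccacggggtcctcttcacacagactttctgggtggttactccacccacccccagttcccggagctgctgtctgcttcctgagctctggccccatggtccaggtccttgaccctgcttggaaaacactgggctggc
Itih1: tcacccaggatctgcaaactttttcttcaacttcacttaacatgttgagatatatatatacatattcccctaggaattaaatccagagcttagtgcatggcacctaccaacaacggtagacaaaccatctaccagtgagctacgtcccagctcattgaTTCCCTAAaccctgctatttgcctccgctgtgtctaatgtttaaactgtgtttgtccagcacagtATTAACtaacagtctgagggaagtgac
Both strands were searched for 5 letter strings, chosen after the sequences were seen. TATAAA is the TATA box, GTTAAT a core of the sites of HNF1 and CAAAGT a core of those of HNF4, both hepatocyte factors. TTNNGNAA stands for sites of C/EBP factors and TTCNNNGAA for those of STAT factors, which carry the acute phase response. In the Itih4 window CAAAGT began 125 bases and TTCNNNGAA 51 bases before the start; these letters occur in 12.6% and 7.02% of all promoter windows of the same length. The Itih1 window held GTTAAT (27 bases before the start, 6.43% of all windows) and TTNNGNAA (92 bases before, 36.8%). The Itih3 window, which lies mostly inside the longer gene model, held none of these letter strings, so it is not a like comparison with the other 2 windows. Beyond chromosome 14, the Itih2 window held CAAAGT and 2 matches of TTNNGNAA, with the CAAAGT and 1 of those matches sharing bases, and the Itih5 and Ambp windows held none of the 5. A match describes the sequence and is no evidence of binding.

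Libraries held 15024945 to 17101844 reads assigned to genes, and each MOCA library (15024945 to 15970453) was shallower than each control library (16077424 to 17101844). Values are the authors' normalised counts, CPM scaled by TMM (a scaling that equalises most genes between libraries), so 1 read was worth 0.0581 to 0.0648. The 6 genes had 359 to 55928 reads per library. Hepatocyte markers had a summed value of 104733 to 118018 in MOCA and 120208 to 140693 in control livers, and all 9 listed markers were present. The listed leukocyte markers summed to 6.48 to 13.6, and the T, B, NK and neutrophil markers Cd3e, Cd79a, Nkg7 and Ly6g were not among the listed genes. P-values weigh a group difference against the spread between these mice.

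All 6 genes had lower means in MOCA livers, and 1 of them, Itih3, passed the test over all genes. Adjusted p-values are from limma with Benjamini-Hochberg adjustment over 12008 genes, and a call is an adjusted p under 0.05; such calls toward lower values made up 0.266% of the tested genes. In 5 of the 6 genes (Itih1, Itih2, Itih3, Itih4 and Ambp) every MOCA mouse lay below every control mouse, against 4.96% of all tested genes. On reads recovered from the values, edgeR called 1 of the 6 (0.275% of tested genes were called lower). DESeq2 called 4 (1.67% called lower, of the 11774 tested genes to which it gave an adjusted p). The median log2 fold change of the 6 was -0.38, against 0.0051 for all tested genes. Highly expressed genes as a class also lay lower: of the 145 tested genes whose mean was at least that of Itih3, the lowest of those 5, 71.7% had a negative log2 fold change (48.9% of all tested genes), their median was -0.12, and 20.7% had no overlap with lower MOCA values. That threshold was set after the values were seen, and the 5 genes are among the 145. Log2 fold changes compare MOCA with control livers after adding 1 to each value, and in bulk liver fewer hepatocytes and less RNA per hepatocyte cannot be told apart.

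**Figure D1:**
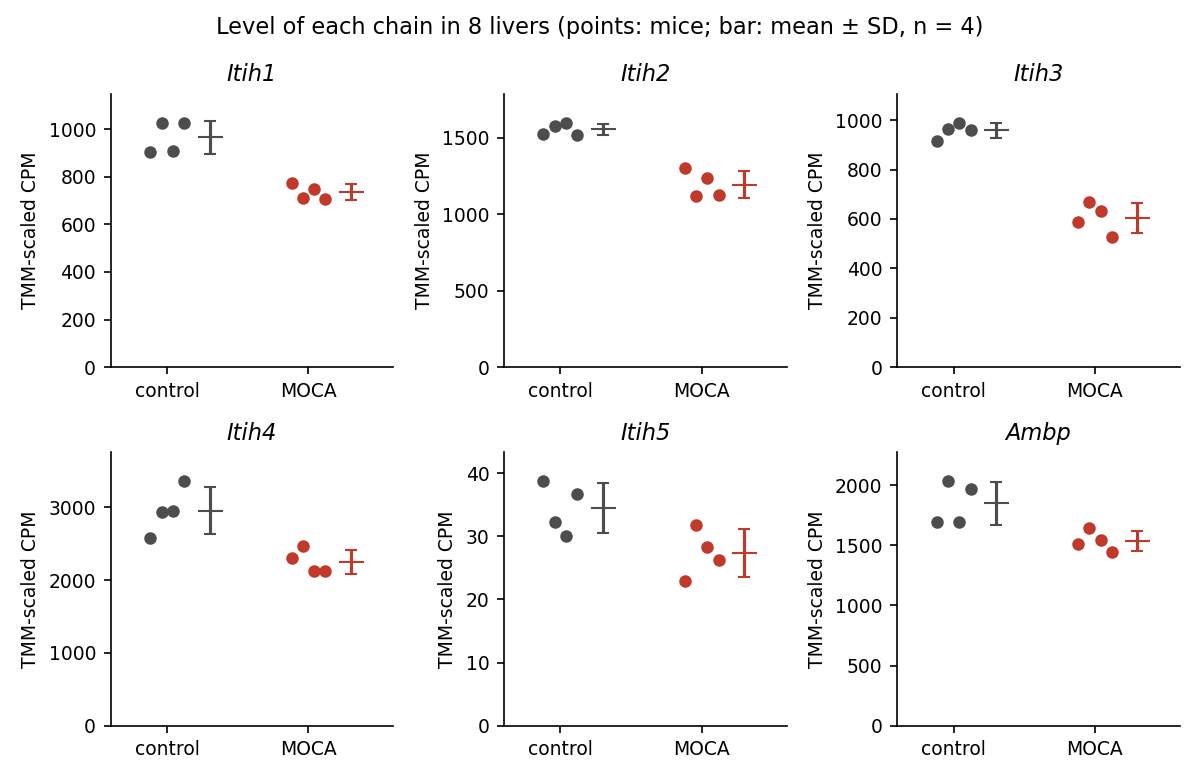
Level of each gene (y axis, TMM-scaled CPM, from 0) in the 4 control (grey) and 4 MOCA (red) livers; each point is a mouse and the bar beside the points is the mean with its SD. For Itih3 the MOCA mice sit between 525 and 667, below the control mice at 917 to 989, and of the 6 genes only Itih5 has overlapping groups.

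Itih3, which encodes heavy chain 3, had the largest log2 fold change of the 6 in size. Control mice 1 to 4 had 917, 965, 989 and 961, and MOCA mice 1 to 4 had 586, 667, 634 and 525. The groups were far apart relative to their spread, with MOCA mouse 4 lowest and MOCA mouse 2 highest of the treated livers. The mean fell by 37.0%, from 958 ± 30.1 to 603 ± 61.5 (SD, n = 4), a log2 fold change of -0.67 (95% interval -0.86 to -0.48, SE 0.09, limma adjusted p = 0.00778). By p-value it ranked 10 of 12008. The call held in each of the 22 other fits, including edgeR and DESeq2 on recovered reads, with log2 fold changes of -0.72 to -0.52 and adjusted p of at most 0.0348.

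Itih1 and Itih2, which encode the heavy chains that most often sit on bikunin together, stopped just short of the threshold. For Itih1 the control mice had 905, 1027, 909 and 1026 and the MOCA mice 776, 709, 749 and 705. The 2 groups did not overlap, and control mice 2 and 4 stood about equally above control mice 1 and 3. The means were 967 ± 68.9 and 735 ± 33.9, a log2 fold change of -0.39 (95% interval -0.57 to -0.22, SE 0.08, limma adjusted p = 0.0517). For Itih2 the control mice had 1525, 1574, 1597 and 1519 and the MOCA mice 1300.1, 1116, 1235 and 1125. Its control group was tight and its MOCA group wider, with MOCA mouse 1 highest. The means were 1554 ± 38.3 and 1194 ± 89.1, a log2 fold change of -0.38 (95% interval -0.56 to -0.20, SE 0.08, limma adjusted p = 0.0619). Other settings moved both genes across the threshold: Itih1 passed in 6 and Itih2 in 4 of the 22 other fits, DESeq2 among them (adjusted p = 8.3e-05 for each).

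Itih4, whose product is a kallikrein-sensitive plasma glycoprotein, had the highest value of the heavy chain genes. Control mice had 2575, 2935, 2944 and 3356 and MOCA mice 2305, 2465, 2118 and 2122. Control mouse 1 came closest to the treated mice and control mouse 4 was highest. The means were 2952 ± 319 and 2252 ± 167, a log2 fold change of -0.39 (95% interval -0.62 to -0.16, SE 0.11, limma adjusted p = 0.111), and DESeq2 alone of the 22 other fits called it (adjusted p = 0.00441). Its fold change was thus close to those of Itih1 and Itih2, with a larger standard error.

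Ambp, the source of bikunin and alpha-1-microglobulin, differed least on the log2 scale. Control mice had 1696, 2032, 1694 and 1969.8, and MOCA mice had 1508, 1645, 1542 and 1448. Control mice 1 and 3 lay just above MOCA mouse 2, and control mice 2 and 4 well above it, the same 2 mice that were high for Itih1. The means were 1848 ± 178 and 1536 ± 82.6, a log2 fold change of -0.26 (95% interval -0.47 to -0.06, SE 0.09, limma adjusted p = 0.191). None of the 22 other fits called Ambp, with adjusted p of 0.0582 to 0.411.

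Itih5 was the scarce member. Control mice had 38.7, 32.3, 30.1 and 36.7 and MOCA mice 22.8, 31.8, 28.3 and 26.3. The groups overlapped, since MOCA mouse 2 lay above control mouse 3. The means were 34.4 ± 3.96 and 27.3 ± 3.77, a log2 fold change of -0.33 (95% interval -0.57 to -0.08, SE 0.11, limma adjusted p = 0.175), and none of the 22 other fits called it. The 10 stellate cell and fibroblast markers, all listed, summed to 665 to 737 in control and 555 to 686 in MOCA livers. Gene by gene, 5 of them were higher and 5 lower in MOCA livers, with a median log2 fold change of -0.0003. MOCA mouse 1 was lowest both in that sum (555) and in Itih5 (22.8); the part of these cells in the Itih5 values was not tested.

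**Figure D2:**
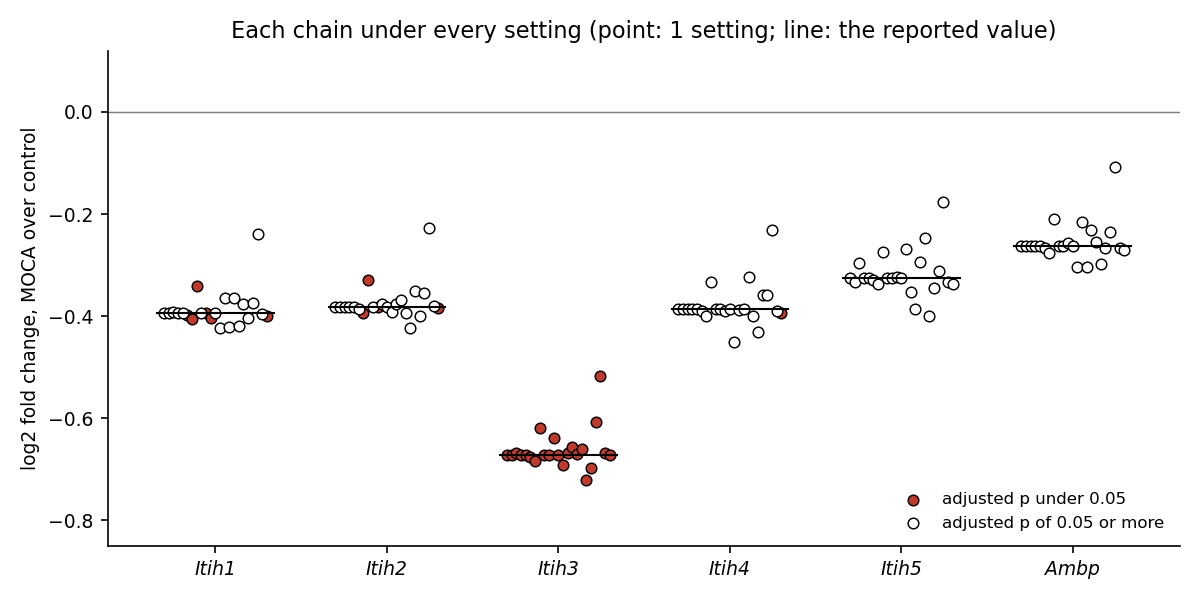
Log2 fold change of each gene (y axis, MOCA over control) in the reported fit and in the 22 other fits; each point is a fit, filled where the adjusted p was under 0.05, and the line is the reported value. All points lie below 0, those of Itih3 are all filled, and those of Itih5 and Ambp are all open.

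Since hepatocyte marker sums were lower in every MOCA liver, the fit was repeated with columns rescaled to an equal sum of those markers, a choice made after the sums were seen. A sum gives most weight to the most abundant markers. Those include Trf and Apob, which are named below as the genes most like Ambp and Itih3, so the scaling was no measure of hepatocyte number. It shifted the median of all tested genes to 0.15. On this scaling Itih3 had a log2 fold change of -0.52 (limma adjusted p = 0.0118). Itih1, Itih2 and Itih4 had -0.24, -0.23 and -0.23 (adjusted p = 0.0878, 0.13 and 0.175), Itih5 -0.18 and Ambp -0.11 (0.39 and 0.411).

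Levels between genes were compared per kilobase of the longest transcript with a RefSeq counterpart. In control livers Ambp was highest, at 1457 ± 141 per kb, followed by Itih4 at 836 ± 90.5 and Itih2 at 501.2 ± 12.4. Itih3, at 320.2 ± 10.1 per kb, and Itih1, at 314 ± 22.4 per kb, did not differ beyond their spread, and Itih5 was far below, at 4.36 ± 0.501. Every other neighbouring pair in this order was separated, mouse for mouse, in both groups. In MOCA livers Itih3 stood below Itih1 without overlap (202 ± 20.6 against 239 ± 11.0 per kb). Counting all annotated exons as the length put Itih3 below Itih1 in control livers too, at 263 ± 8.27 against 294 ± 20.9 per kb. The other MOCA levels per kb were 1211 ± 65.2 for Ambp, 638 ± 47.2 for Itih4, 385 ± 28.7 for Itih2 and 3.46 ± 0.477 for Itih5.

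Whether Itih3 differed from its partners was tested on the log2 ratio within each mouse, in which library scaling nearly cancels. Relative to Itih2, Itih3 stood at 60.2%, 61.3%, 61.9% and 63.3% in the control mice and at 45.1%, 59.8%, 51.4% and 46.8% in the MOCA mice. The groups did not overlap, although MOCA mouse 2 came close to control. Relative to Ambp, Itih3 stood at 54.1%, 47.5%, 58.4% and 48.8% in control and at 38.9%, 40.6%, 41.2% and 36.3% in MOCA mice, again without overlap. The log2 ratio changed by -0.29 against Itih2 and by -0.41 against Ambp (exact two-sided permutation p = 0.0286 for each, the smallest that 4 against 4 allows). Against Itih4 and Itih5 it changed by -0.29 and -0.35 (exact permutation p = 0.0571 for each) and against Itih1 by -0.28 (exact permutation p = 0.0857), all 3 with overlapping groups. Adjusted over the 5 ratios, the exact permutation p-values were 0.0714 for 4 of them and 0.0857 for Itih1, so no ratio passed. A larger fall of Itih3 than of the other chains was therefore not established with 4 mice a group.

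**Figure D3:**
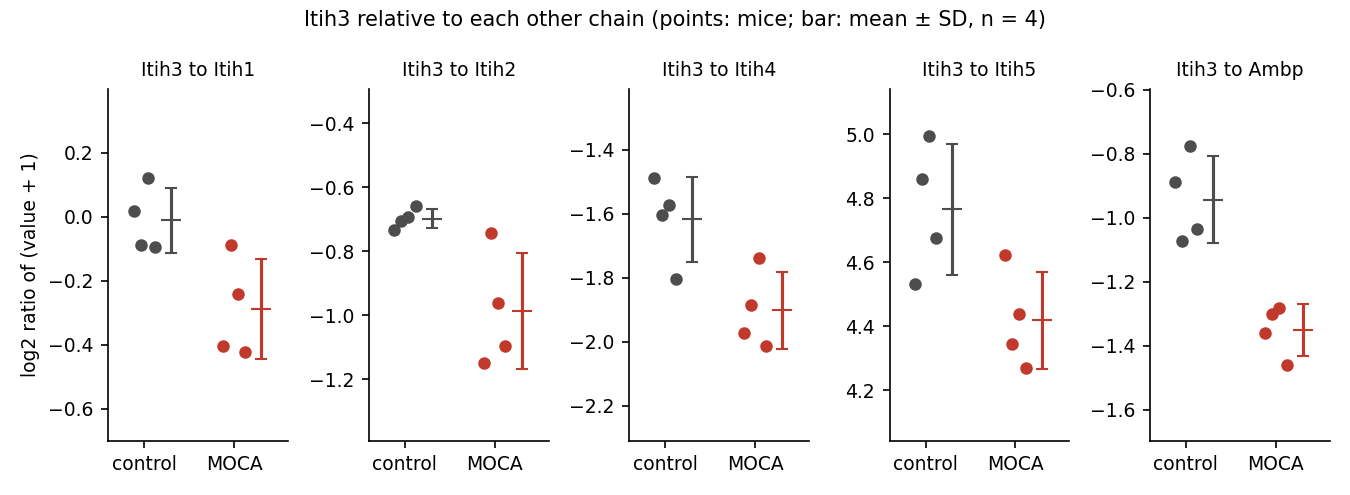
Log2 ratio of Itih3 to each other gene within a mouse (y axis; panels span the same range of log2 units) in control (grey) and MOCA (red) livers, with the mean and SD beside the points. The MOCA mean is lower in all 5 panels, and the groups are apart in the panels for Itih2 and Ambp.

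Within groups the 6 genes did not vary as a block. Over 8 libraries, as deviations from the group means, Itih1 went with Ambp (r = 0.70) and Itih4 with Ambp (r = 0.66), while Itih3 had r = 0.11 with Itih1, 0.10 with Itih2, 0.47 with Itih4 and 0.49 with Ambp. Itih2 and Itih5, which lie next to each other, had r = -0.71. These correlations describe 8 libraries that share their scaling, and carry no test.

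The other genes around the 3 loci showed no call. Within 200 kb of Itih4, Itih3 and Itih1, 10 other genes were tested, with log2 fold changes of -0.16 to 0.11, a median of -0.10 and a lowest limma adjusted p of 0.387; none had an unadjusted p under 0.05. Nek4, a kinase gene next to Itih1, had 14.9 ± 1.40 and 16.2 ± 0.737 (log2 fold change 0.11, or 0.053 without control mouse 2; limma adjusted p = 0.536), and Mustn1, next to Itih4, was too low for a test (0.956 ± 0.234 and 0.743 ± 0.169). Near Itih2 and Itih5, the neighbour Kin was 8.57 ± 1.02 and 7.66 ± 0.411 (-0.14, adjusted p = 0.509; -0.092 without control mouse 1 and -0.21 without control mouse 4), and Taf3, 46.0 kb from Itih2, was 11.0 ± 0.384 and 8.88 ± 0.691, with no overlap (-0.28, adjusted p = 0.15). Of the 3 tested genes there Taf3 alone had a nominal p under 0.05. Sfmbt2, beyond Itih5, was below the filter (0.44 ± 0.0583 and 0.392 ± 0.24). Both immediate neighbours of Ambp, Zfp618 and Kif12, were below the filter too, at control means of 0.335 and 0.303. Within 200 kb of Ambp 2 genes were tested, and neither was called. Col27a1, a collagen gene 59.8 kb away, was 22.03 ± 7.84 and 15.9 ± 1.45 (-0.39, adjusted p = 0.299), with a log2 fold change of -0.18 without control mouse 1, which had 33.3. Orm1, an acute phase lipocalin 190.4 kb away, was 382 ± 60.3 and 377 ± 28.7 (-0.01, adjusted p = 0.972), with a sign that turned with the mouse left out (-0.11 to 0.062).

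**Figure D4:**
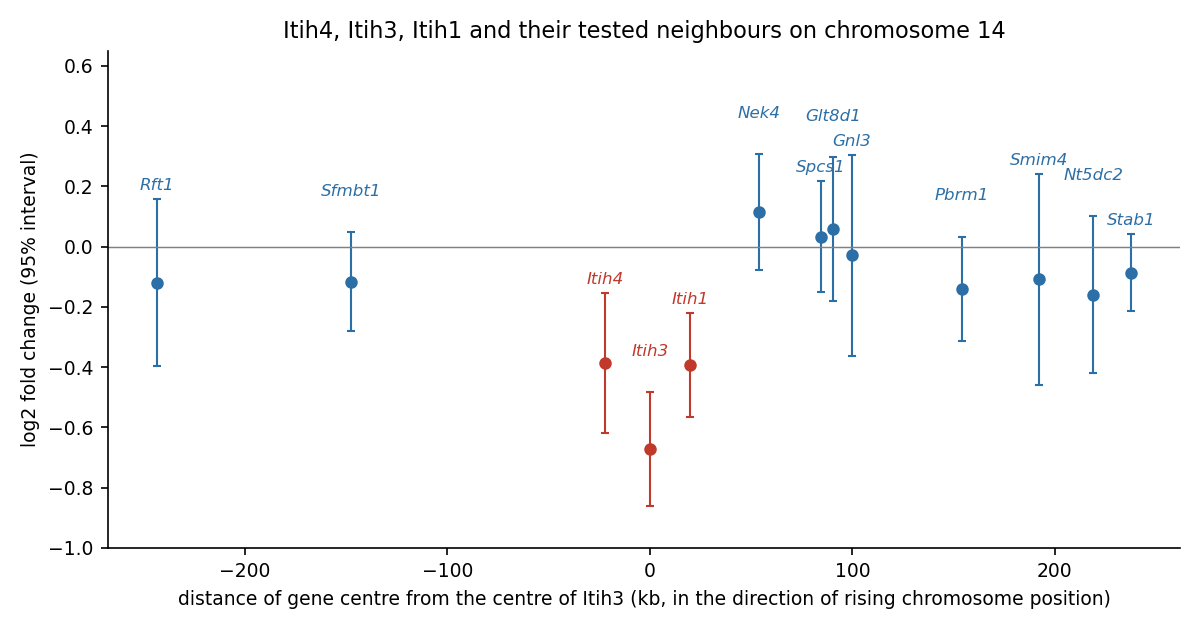
Log2 fold change with its 95% interval (y axis) of Itih4, Itih3 and Itih1 (red) and of the 10 other tested genes within 200 kb (blue), by distance in kb of the gene's centre from that of Itih3. The intervals of the 3 chain genes lie below 0 and those of the 10 neighbours include 0.

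Genes that build and handle the complex were described by lists whose members were named by function. In the lists below, apart from the inter-alpha-trypsin genes, limma called 0 genes. Each count of nominal p, edgeR and DESeq2 calls can be read against all tested genes. Of these 17.5% had a nominal (unadjusted) p under 0.05, 0.666% were called by limma and 0.675% by edgeR. DESeq2 called 3.52% of the 11774 tested genes to which it gave an adjusted p. All MOCA values lay below all control values in 4.96% of tested genes, and in 20.7% of the 145 highly expressed genes above. The genes described from each list are the 2 with the smallest p. Of these, and beyond those marked below, Tmem2, Stab2, Serpinf1, Serpina1c, C3, Trf, Reln and Ecm1 had no overlap and lower MOCA values. Papss1 and Mup20 had no overlap and higher MOCA values. Some genes not described lacked overlap too. In all, the hyaluronan receptor list held 3 such genes with lower and 2 with higher MOCA values. The hepatocyte marker list held 2 with lower MOCA values. Of 5 tested convertase and kallikrein genes, all 5 were lower in MOCA livers without a call (nominal p under 0.05 in 1, edgeR calls 0, DESeq2 calls 1), with a median log2 fold change of -0.20. Klkb1, plasma kallikrein, which cleaves the Itih4 product, was 269 ± 7.43 and 235 ± 6.42 (log2 fold change -0.20, limma adjusted p = 0.15), with every MOCA mouse below every control mouse. Pcsk7, a proprotein convertase, was 36.2 ± 3.34 and 31.4 ± 3.73 (adjusted p = 0.311).

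For the chondroitin sulfate chain that joins heavy chains to bikunin, 16 genes were tested; 11 were lower and 5 higher (nominal p under 0.05 in 2, edgeR calls 0, DESeq2 calls 1), with a median of -0.09. Papss1, an enzyme for the sulfate donor, had values of 9.70 ± 0.712 and 13.5 ± 1.68 (log2 fold change 0.44, limma adjusted p = 0.08), and Chst13, a chondroitin sulfotransferase, was 2.78 ± 0.869 and 4.23 ± 1.08 (0.47, adjusted p = 0.22).

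Hyaluronan metabolism had 8 tested genes, 5 higher and 3 lower (nominal p under 0.05 in 3, edgeR calls 0, DESeq2 calls 1), with a median of 0.04. Ugdh, which makes the glucuronic acid donor of hyaluronan, was 105 ± 17.1 and 146 ± 18.8 (log2 fold change 0.47, limma adjusted p = 0.103). Tmem2, also called Cemip2, a cell-surface hyaluronidase, was 48.9 ± 4.86 and 40.2 ± 5.17 (-0.28, adjusted p = 0.202). Tnfaip6, the gene of TSG-6, was not among the listed genes. Of 9 tested hyaluronan receptors and partners, 6 were higher and 3 lower (nominal p under 0.05 in 4, edgeR calls 0, DESeq2 calls 1; median 0.13). Hapln4, a link protein gene, was 13.5 ± 1.33 and 19.3 ± 2.02 (0.49, adjusted p = 0.0578), with no overlap. Stab2, the hyaluronan clearance receptor of sinusoidal endothelium, was 154 ± 14.6 and 129 ± 1.98 (-0.25, adjusted p = 0.138).

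Other inhibitors and their relatives differed by list. Of 7 tested Kunitz-type inhibitor genes beside Ambp, 4 were higher and 3 lower (nominal p under 0.05 in 2, edgeR calls 0, DESeq2 calls 2), with a median of 0.0002. Tfpi2 was 39.98 ± 7.24 and 57.8 ± 5.96 (log2 fold change 0.53, limma adjusted p = 0.0726), and App, the amyloid precursor gene with a Kunitz exon, was 140.1 ± 4.89 and 113 ± 6.22 (-0.31, adjusted p = 0.0619). The groups of both were apart, in opposite directions. Of 22 tested genes of plasma protease inhibitors and related plasma proteins, 20 were lower and 2 higher (nominal p under 0.05 in 5, edgeR calls 0, DESeq2 calls 5). Their median was -0.11. In 6 of them all MOCA values lay below all control values, a count to set beside the 4.96% and 20.7% given above. Serpinf1, which encodes pigment epithelium-derived factor, was 615 ± 55.9 and 477 ± 40.4 (-0.37, adjusted p = 0.0831). Serpina1c, an alpha-1 antitrypsin paralog whose reads may be shared with its copies, was 5427 ± 352 and 3986 ± 658 (-0.46, adjusted p = 0.117).

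**Figure D5:**
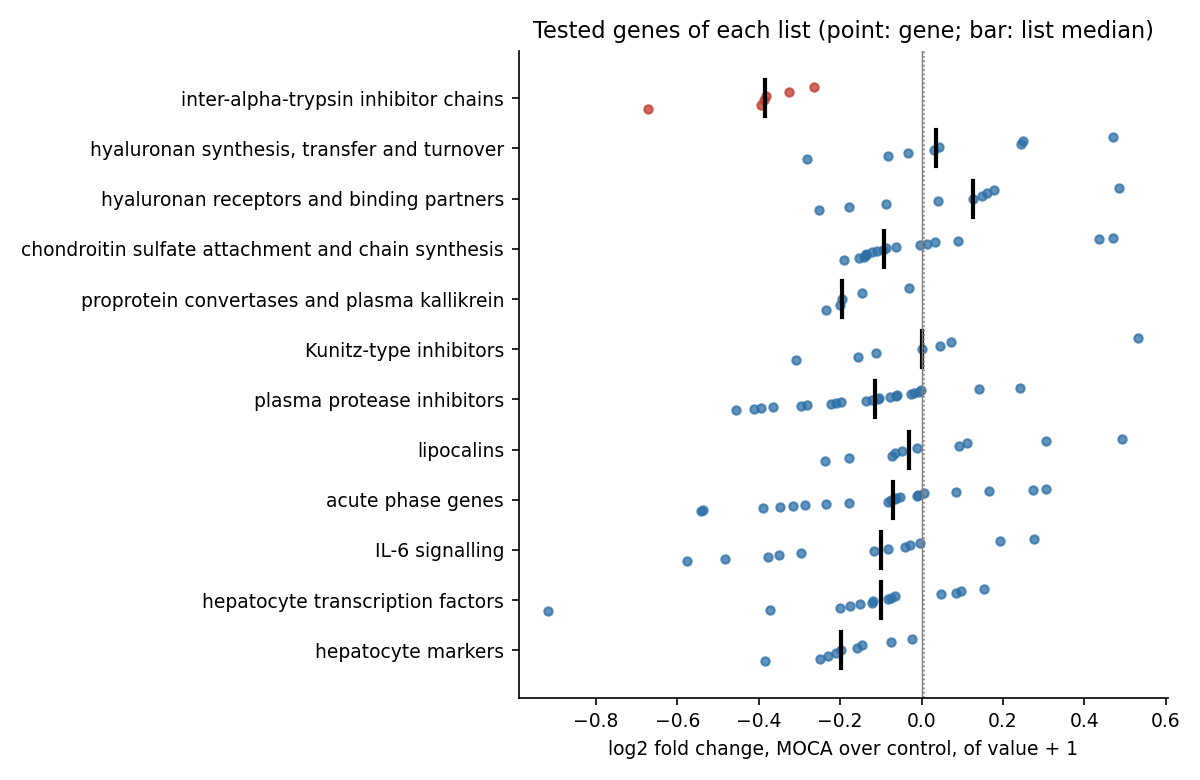
Log2 fold change (x axis, MOCA over control) of the tested genes of each list; each point is a gene, the black bar is the list median and the dotted line the median of all tested genes. The chain genes lie between -0.67 and -0.26. The genes of the convertase and kallikrein list and of the hepatocyte marker list also all lie below 0. The other lists spread to both sides of 0.

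Itih3 and Itih4 are acute phase genes in rodents, so the genes of that response were set beside them. Of 20 tested acute phase genes, with no Itih gene in the list, 15 were lower and 5 higher (nominal p under 0.05 in 5, edgeR calls 1, DESeq2 calls 2), with a median of -0.07. C3, the central complement component, was 14580.0 ± 1021 and 9996 ± 423 (log2 fold change -0.54, limma adjusted p = 0.0726) and was called by edgeR (adjusted p = 0.0391), and Cfb, complement factor B, was 1541 ± 148 and 1260.5 ± 83.6 (-0.29, adjusted p = 0.166). In IL-6 signalling 10 of 12 tested genes were lower (nominal p under 0.05 in 4, edgeR calls 0, DESeq2 calls 1; median -0.10). Il6ra, the IL-6 receptor, was 85.7 ± 5.89 and 58.4 ± 14.3 (-0.58, adjusted p = 0.0976), with no overlap, and Nfkb1 was 24.7 ± 2.59 and 30.1 ± 2.26 (0.28, adjusted p = 0.166).

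Of 14 tested hepatocyte transcription factor genes, 10 were lower (nominal p under 0.05 in 2, edgeR calls 0, DESeq2 calls 1; median -0.10). Onecut1, also known as HNF6, was 21.6 ± 8.15 and 10.7 ± 2.37 (log2 fold change -0.92, limma adjusted p = 0.0797), with no overlap, and Foxa3 was 57.9 ± 2.58 and 45.8 ± 12.03 (-0.37, adjusted p = 0.273). Without MOCA mouse 4, at 28.8, the Foxa3 log2 fold change was -0.17. Of 10 tested lipocalins, the family of alpha-1-microglobulin, 6 were lower (nominal p under 0.05 in 1, edgeR and DESeq2 calls 0; median -0.03). The retinol carrier Rbp4 was 2188 ± 228 and 1934 ± 190.2 (-0.18, adjusted p = 0.43), and Mup20, a major urinary protein gene with close copies, was 25.02 ± 5.69 and 35.3 ± 6.82 (0.49, adjusted p = 0.181). Leaving out MOCA mouse 4 took Rbp4 to -0.11, and leaving out control mouse 1 took Mup20 to 0.31.

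All 9 hepatocyte markers had negative log2 fold changes, with a median of -0.20 and no limma call (nominal p under 0.05 in 2, edgeR calls 0, DESeq2 calls 2). Trf, transferrin, was 21030 ± 2065 and 16088 ± 1091 (log2 fold change -0.38, limma adjusted p = 0.218), and Cyp2e1 was 5988 ± 301 and 5055 ± 518 (-0.25, adjusted p = 0.283). The listed Kupffer cell and macrophage markers summed to 285 to 343 in control and 289.7 to 394 in MOCA livers. Endothelial markers summed to 398 to 464 and 388 to 405, and cholangiocyte markers to 55.4 to 66.5 and 49.8 to 70.2. Of these markers and those of other cells, limma called 0, as did edgeR, and DESeq2 called 1, the stellate cell gene Reln, which was 247 ± 21.3 and 201 ± 11.1 (-0.30, limma adjusted p = 0.104). Of the 10 stellate cell and fibroblast markers 5 were higher and 5 lower, with a median log2 fold change of -0.0003. Of 8 endothelial markers 2 were higher and 6 lower (median -0.13). Among 8 Kupffer cell and macrophage markers 7 were higher and 1 lower (median 0.13). The stellate gene Ecm1 was 189 ± 8.88 and 164 ± 15.4, and the endothelial receptor gene Kdr 94.1 ± 8.91 and 81.6 ± 2.13. The macrophage genes Adgre1 and Timd4 were 19.9 ± 2.33 and 23.4 ± 3.52, and 4.04 ± 1.03 and 5.06 ± 0.93. Ptprc, the common leukocyte antigen, was 7.11 ± 1.78 and 9.50 ± 2.04. The bile duct genes Krt19 and Spp1 were 1.15 ± 0.424 and 0.86 ± 0.273, and 26.5 ± 2.45 and 28.04 ± 2.66. Mesothelial markers summed to 4.82 to 10.7 and 3.75 to 6.11, with Upk3b at 2.24 ± 1.24 and 1.28 ± 0.437 and Gpm6a at 2.11 ± 0.415 and 1.73 ± 0.382. At a nominal p under 0.05 stood 2 endothelial genes, 2 stellate genes and Ptprc. The part of these cell types in the values of the chain genes was not tested.

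Finally, the genes of mean at least 5 whose pattern over the 8 libraries was most like each chain were taken from 9273 genes by Pearson correlation, which the group difference itself enters. For Itih3 these were Apob (r = 0.98), the apolipoprotein of very low density lipoprotein, Sptb (0.98), Mgrn1 (0.97), Ogdh (0.97) and Cask (0.97), with log2 fold changes of -0.20, -0.73, -0.24, -0.10 and -0.27. Sptb, which encodes a spectrin, fell from 7.40 ± 0.761 to 4.07 ± 0.592 (limma adjusted p = 0.0209), and the other 4 did not pass. For Itih1 they were Wfdc2 (0.99), Os9 (0.99) and Tfr2 (0.98), and Wfdc2, a secreted protein of the whey acidic protein type, fell from 6.93 ± 1.59 to 3.11 ± 0.405 (adjusted p = 0.0202). For Itih2 they were Nfix (0.999), F5 (0.98) and Slc25a16 (0.98), and F5, coagulation factor V, fell from 1249 ± 91.2 to 888 ± 67.3 (adjusted p = 0.02999). For Itih4 they were Man2a2 (0.98), Abcc6 (0.98) and C4b (0.98), and C4b, complement component 4B, fell from 2666 ± 327 to 1725 ± 111 (adjusted p = 0.027). For Itih5 they were Vps13c (0.95), Cd74 (0.95) and Hnrnpl (0.94), and for Ambp Trf (0.98), Slc35b2 (0.98) and Rps16 (0.98), none of them called. In the 8 fits that each left out a mouse, Sptb stayed called in 5, Wfdc2 in 4, C4b in 2 and F5 in 1. The highest limma adjusted p-values in those fits were 0.087, 0.0627, 0.0834 and 0.106. Since the group difference enters the choice of these genes, their p-values are no separate support.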

How the data were processed

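Directional MGIEasy libraries were prepared from 200 ng of liver RNA after ribosomal depletion, per the labels' protocols. The build was mm10 and the tools Trimmomatic 0.38, RSEM, Bowtie2 and edgeR, per the submitters' processing notes; their roles and the strand setting are not given in the sources used here. In all, the authors deposited 1 table of scaled signal (normalised counts) for 15210 genes. In it 100% of values were whole multiples of 1 read per column within 0.001, and TMM-scaled CPM recomputed from those reads gave the deposited values.

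The main test was limma 3.58.1 (R 4.3.3) on log2(value + 1), with a mean-variance trend in eBayes and no covariate, for the 12008 genes that reached 1 in 4 or more libraries (3202 were left out). It was tested on simulated data, in which every change was larger than those of the chain genes other than Itih3. The recovered reads went into edgeR 4.0.16 (quasi-likelihood) and DESeq2 1.42.0. Ratios used exact permutation tests.

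The members and gene lists were chosen with earlier results of these data known. Genes named are the members, their immediate neighbours and the genes most like each member. In each list they are the called genes and the 2 with the smallest p. Taf3, Orm1 and Col27a1 were added after their values were seen. Tnfaip6 was named as well, though it was not among the listed genes and had no values. Other settings were pseudocounts, filters, scalings, variance models, weights, a replicate block and leaving out each mouse. Same-numbered mice were not treated as paired, since no label states a pairing. Their deviations from group means correlated at -0.07 to 0.04, which with so few mice cannot exclude a shared factor. Gene records and upstream sequences are from RefSeq (GRCm38.p6), and transcript lengths from GENCODE M21. The 6 genes were matched by symbol in both. The number of columns not used was 0.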

Additional observations from a re-analysis of the deposited data

Results flagged for a closer look

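Among 134 groups of 4 mice checked (6 chain genes, their ratios and the other named genes, in each treatment group), 9 held a mouse far from the other 3 relative to the group's range; chance gives about 5% of groups. None was a chain gene or a ratio. In control mice these were Chst13 in replicate 4 (4.08, next 2.47), Ecm1 in replicate 1 (203, next 186), F5 in replicate 3 (1384, next 1218), Mup20 in replicate 1 (16.6, next 27.1) and Papss1 in replicate 2 (10.8, next 9.47). Serpina1c in replicate 4 (5948, next 5316) and Vps13c in replicate 1 (100.6, next 94.5) were the other control values. In MOCA mice they were Mgrn1 in replicate 4 (56.9, next 59.5) and Serpina1c in replicate 3 (4962, next 3754).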

How the results depend on the processing

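Each of the 6 log2 fold changes kept its negative sign in all 22 other fits. Itih3 was called in all 22, including every fit that left out a mouse (-0.72 to -0.61). Itih1, not called in the reported fit, was called with median of ratios (-0.40, adjusted p = 0.0493), upper quartile (-0.41, 0.0322) and equal column sum scaling (-0.34, 0.032), robust eBayes (-0.39, 0.0453), sample weights (-0.40, 0.0393) and DESeq2 (-0.40). Itih2 was called with upper quartile scaling (-0.39, 0.0359), equal column sums (-0.33, 0.0454), robust eBayes (-0.38, 0.0492) and DESeq2 (-0.38), and Itih4 with DESeq2 (-0.39). Without single mice the ranges were -0.42 to -0.36 for Itih1, -0.42 to -0.35 for Itih2, -0.45 to -0.32 for Itih4, -0.40 to -0.25 for Itih5 and -0.30 to -0.22 for Ambp, none called; the causes were not tested. Over all genes 80 were called (48 higher, 32 lower). Equal column sums gave 169 (131 and 38), the hepatocyte marker scaling 626 (596 and 30), DESeq2 414 and the replicate block 30; the block changed no call among the 6, and 0 of 8 libraries correlated best with their own number. Leaving out a mouse gave 29 to 77 calls, with 45, 47, 29 and 40 without control replicates 1, 2, 3 and 4, and 42 and 39 without MOCA replicates 2 and 4. The Itih3 ratios kept their sign and missed the threshold throughout; leaving out a mouse, or the block, allows no p under 0.05 with so few mice. Of the other 56 named genes, Ogdh (0.055), Slc25a16 (0.015), Vps13c (0.0035) and Orm1 (0.14) changed sign with the marker scaling, and Orm1 also with equal column sums (0.042) and without single mice (-0.11 to 0.062). Itih5 had the fewest reads of the 6, at 359 to 666 a library.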
